A study of Mus musculus with 12 samples.

Results

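A set of 9 genes that write, copy, bind or remove DNA methylation was followed across the 12 RNA‐seq libraries of the *Xist*‐TetOP lines. They were taken by symbol from the 24627 genes in the count files, and all 9 were present. *Dnmt3a* and *Dnmt3b* encode the de novo methyltransferases and *Dnmt3l* their catalytically inactive cofactor. *Dnmt1* encodes the maintenance methyltransferase and *Uhrf1* the protein that brings it to hemimethylated DNA behind the replication fork. *Tet1*, *Tet2* and *Tet3* encode the dioxygenases that oxidise 5‐methylcytosine, and *Tdg* the glycosylase that excises the further oxidised bases for base excision repair. Mouse embryonic stem (ES) cells held in serum carry methylated genomes, and on exit from pluripotency the de novo enzymes are normally high while *Tet1* and *Tet2* decline. Only RNA was measured in these libraries, so nothing below concerns methylation itself.

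All lines derive from J1, a male (XY) mouse ES cell line. Their endogenous *Xist* gene is driven by a doxycycline (DOX)-responsive TetO promoter, so that *Xist* can coat the only X chromosome of a cell. *Xist* FL makes the full‐length RNA, *Xist* ΔA lacks the A repeat, which is needed for gene silencing, and *Xist* ΔB+C lacks the B and C repeats, which recruit Polycomb complexes. Cells were differentiated by LIF withdrawal for 2 days, either without doxycycline (noDOX) or at 1.5 μg/ml (DOX), and each of the 6 groups had 2 replicates. Each genotype is represented by its own line, so a difference between lines cannot be told apart from a difference between clones. The study made *Xist* ΔB+C by editing the *Xist* FL line, whereas *Xist* ΔA, like *Xist* FL, was a line published earlier. Bulk RNA also cannot separate a change in the share of cells of a type from a change of RNA per cell. By RNA fluorescence in situ hybridization, the study saw *Xist*-coated chromosomes in only part of the cells given DOX. That share differed between lines and replicates, and the DOX values below are not adjusted for it.

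Libraries held between 31337490 and 41240470 counts. *Xist* averaged 2.74 ± 0.37 counts per 1000000 (CPM; SD, n = 2) in *Xist* FL noDOX and 888 ± 27.6 in *Xist* FL DOX. The averages without and with DOX were 7.31 ± 1.36 and 646 ± 107 CPM for *Xist* ΔA, and 2.52 ± 0.034 and 1475 ± 447 CPM for *Xist* ΔB+C, so the libraries matched their DOX labels. The counts are per whole gene and do not check the deleted repeats. Replicate 2 of *Xist* ΔB+C DOX was made from a low input of 100 ng of RNA, and the others from 1000 ng. The ES cell markers *Pou5f1*, *Sox2*, *Nanog*, *Lin28a* and *Utf1* summed to between 2944 and 4224 CPM in every library. The 7 fibroblast or feeder markers, 4 of which passed the filter, summed to 10.4 to 17.1 CPM over the *Xist* ΔA libraries, 20.1 to 54.2 CPM over those of *Xist* FL and 24.5 to 40.7 CPM over those of *Xist* ΔB+C. *Col1a1* had the highest level of the 7, at up to 38.1 CPM in *Xist* FL noDOX replicate 1, while *Lum* and *Postn* stayed at or below 0.320 CPM. Replicate 2 differed from replicate 1 in the same direction in all 6 groups for 41.4% of the tested genes, and results are therefore given from a fit without the replicate number and from one that has it as a term (the block).

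Between lines 3 members passed the threshold without the block, and the 250 bases before their RefSeq start sites (GRCm38.p6) are shown so that the loci can be placed. CpG dinucleotides, the substrate of these enzymes, are in capitals. The window is chr2:153649199-153649448 on the plus strand for *Dnmt3b*, chr10:62887325-62887574 on the minus strand for *Tet1*, and chr6:83441679-83441928 on the minus strand for *Tet3*.
Dnmt3b: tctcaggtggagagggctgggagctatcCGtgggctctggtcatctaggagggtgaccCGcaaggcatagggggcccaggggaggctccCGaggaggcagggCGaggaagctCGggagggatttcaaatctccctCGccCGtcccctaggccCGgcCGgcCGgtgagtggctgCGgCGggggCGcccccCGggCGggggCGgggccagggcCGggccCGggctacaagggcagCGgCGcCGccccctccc
Tet1: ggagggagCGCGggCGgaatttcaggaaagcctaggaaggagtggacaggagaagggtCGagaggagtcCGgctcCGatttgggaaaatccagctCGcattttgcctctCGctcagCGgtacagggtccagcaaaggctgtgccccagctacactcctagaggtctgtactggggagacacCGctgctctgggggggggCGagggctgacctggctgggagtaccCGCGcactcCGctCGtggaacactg
Tet3: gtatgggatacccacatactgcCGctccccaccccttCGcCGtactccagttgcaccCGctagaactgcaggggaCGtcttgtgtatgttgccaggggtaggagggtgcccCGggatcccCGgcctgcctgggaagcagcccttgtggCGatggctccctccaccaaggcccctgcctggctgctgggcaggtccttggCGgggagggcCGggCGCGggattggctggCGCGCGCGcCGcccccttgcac
They hold 21, 15 and 17 CpGs, and 16.3%, 27.3% and 23.5% of the 32851 promoter windows in the RefSeq table hold at least as many (median of all windows 6). Among the 16 windows of the 9 members, *Tet2* had the most CpGs, with 51, a number reached by 0.067% of all windows, while the 3 windows of *Dnmt3l* held 5, 4 and 3. None of the members is X‐linked. In the GENCODE vM21 annotation (mm10), *Dnmt3b* spans chr2:153649450-153687730, *Tet1* chr10:62804570-62908996 and *Tet3* chr6:83362373-83459084. The *Tet1* and *Tet3* windows lie inside these spans, so their CpG counts belong to internal starts and not to the outermost annotated start.

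Between genes, levels were compared as CPM per kilobase of annotated exon, averaged over the 12 libraries. *Dnmt3b* was the highest at 235 ± 47.4 CPM per kb (SD, n = 12), followed by *Dnmt3l* at 113 ± 38.3 and *Uhrf1* at 75.6 ± 10.9. The maintenance enzyme *Dnmt1* stood at 41.4 ± 3.47 and *Dnmt3a* at 32.5 ± 10.3 CPM per kb. Among the erasers, *Tet1* reached 12.7 ± 3.71, *Tet3* 1.74 ± 0.371 and *Tet2* 0.659 ± 0.35 CPM per kb. Neighbours in this order whose ranges overlapped were *Dnmt3b* and *Dnmt3l*, *Dnmt3l* and *Uhrf1*, *Dnmt1* and *Dnmt3a*, and *Tet3* and *Tet2*, although *Tet3* was above *Tet2* within each of the 12 libraries. With the longest annotated transcript as the length, *Dnmt3a* moved above *Dnmt1*. *Tdg* was last, at 0.0751 ± 0.0285 CPM per kb, on 8 to 25 counts per library. It was the only member below the filter of 1 CPM in 6 libraries, so 8 of the 9 were tested among 13191 genes. A *Tdg* pseudogene is listed in the annotation beside it, and whether read pairs were lost between near-identical copies was not tested, so its level is uncertain.

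**Figure D1:**
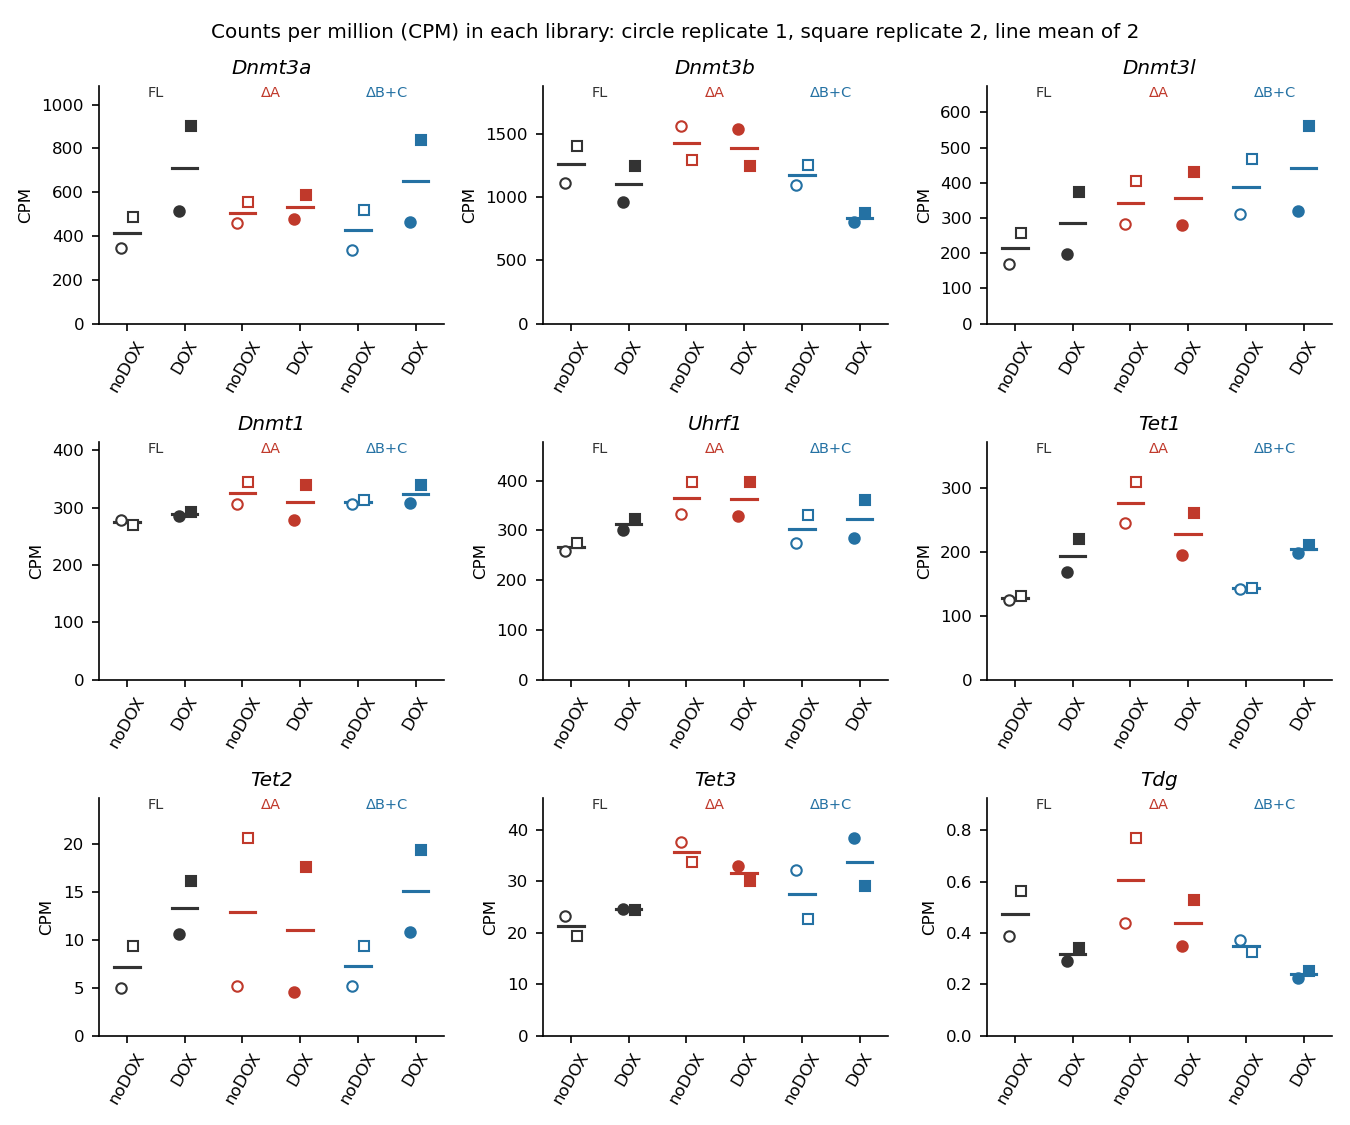
CPM of the 9 genes in each library (vertical axis from 0), by line and treatment; open symbols are noDOX and filled symbols DOX, circles replicate 1, squares replicate 2, and the line is the mean of 2. *Tet1* without DOX sits at 245 and 311 CPM in *Xist* ΔA against 125 to 144 CPM in the other lines, and *Dnmt3b* is lowest in *Xist* ΔB+C DOX.

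Whether expression of *Xist* was accompanied by a change of these genes was asked first, by comparing DOX with noDOX in each line. Without the block, 0 of the 8 members passed the threshold (adjusted p of 0.05, edgeR quasi‐likelihood test) in *Xist* FL, where 1.24% of all genes did, 0 in *Xist* ΔA (0.00758% of genes), and 0 in *Xist* ΔB+C (2.94%). At an unadjusted p of 0.05 the counts of members were 1, 0 and 2. With the block, 3 members rose in *Xist* FL (13.9% of genes called), 2 rose in *Xist* ΔB+C (21.9%) and none passed in *Xist* ΔA (0.0227%). Averaged over the 3 lines, 0 members passed without the block (4.05% of genes) and 3 with it (23.8%), namely *Dnmt3a*, *Dnmt3l* and *Tet1*. The median log2 (fold change) of the 8 members was 0.32 for *Xist* FL, −0.06 for *Xist* ΔA and 0.24 for *Xist* ΔB+C, beside medians of all genes between −0.01 and 0.00. X‐linked genes had medians of −0.85, −0.14 and −0.78 in the same comparisons. The DOX and noDOX libraries did not overlap for 6 members in *Xist* FL, all higher with DOX (48.2% of all genes did not overlap, in either direction), for 1 in *Xist* ΔA (23.5%) and for 3 in *Xist* ΔB+C (43%).

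*Tet1*, the main dioxygenase of ES cells, gave the clearest response. In *Xist* FL its level was 125 and 132 CPM in the noDOX replicates and 169 and 219.98 CPM with DOX. *Xist* ΔB+C had 143 and 144 CPM without DOX and 199 and 211 CPM with it. *Xist* ΔA went the other way, from 245 and 311 CPM to 196 and 262 CPM. The DOX libraries of *Xist* FL and *Xist* ΔB+C all lay above their noDOX libraries, whereas those of *Xist* ΔA overlapped. The log2 (fold change) was 0.60 ± 0.17 (SE) in *Xist* FL (adjusted p = 0.165, and 0.00385 with the block), 0.52 ± 0.17 in *Xist* ΔB+C (0.145, and 0.0055 with the block), and −0.28 ± 0.17 in *Xist* ΔA (1, and 0.943 with the block). With the block, the call in *Xist* FL was lost without *Xist* FL noDOX replicate 2 or *Xist* FL DOX replicate 2 (highest adjusted p = 0.0546), and the call in *Xist* ΔB+C without *Xist* ΔB+C noDOX replicate 2 (0.0769).

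The difference of the *Tet1* response between lines was then tested itself. The response in *Xist* ΔA was below that in *Xist* FL by a log2 difference of −0.88 ± 0.24 (SE; adjusted p = 0.385), and with the block by −0.87 ± 0.14 (adjusted p = 0.0104, 3.31% of genes called). Between *Xist* ΔB+C and *Xist* ΔA the difference was 0.79 ± 0.24 (0.242), and with the block 0.79 ± 0.14 (adjusted p = 0.00926, 9.32% of genes called). *Xist* ΔB+C and *Xist* FL differed by −0.08 ± 0.24 (adjusted p = 1). No other member passed in any of these 3 differences, with or without the block, and for *Xist* ΔB+C against *Xist* FL 0% of genes passed either way. Without the block 0% of genes passed for *Xist* ΔA against *Xist* FL and 0.205% for *Xist* ΔB+C against *Xist* ΔA. The first blocked call was lost without *Xist* ΔA noDOX replicate 2 or *Xist* FL DOX replicate 2 (highest adjusted p = 0.0663), and the second without *Xist* ΔB+C noDOX replicate 2 (0.0536).

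*Dnmt3a*, one of the de novo methyltransferases, was measured in *Xist* FL at 343 and 488 CPM without DOX and 514 and 904 CPM with DOX. In *Xist* ΔB+C it stood at 338 and 517 CPM and at 464 and 837 CPM, and in *Xist* ΔA at 458 and 554 CPM and at 478 and 587 CPM. Replicate 2 was the higher library in each group, and each DOX library was above the noDOX library of the same number. The log2 (fold change) of *Dnmt3a* was 0.77 ± 0.35 (SE) in *Xist* FL (adjusted p = 0.386, and 0.00899 with the block), 0.60 ± 0.35 in *Xist* ΔB+C (0.401, and 0.0171 with the block), and 0.07 ± 0.35 in *Xist* ΔA (1, and 0.976 with the block). The response in *Xist* ΔA minus that in *Xist* FL was −0.70 ± 0.50 (adjusted p = 0.841, and 0.103 with the block). With the block, the *Xist* FL call was lost without replicate 2 of either *Xist* FL group (highest adjusted p = 0.122), and the *Xist* ΔB+C call without either *Xist* ΔB+C noDOX replicate or *Xist* ΔB+C DOX replicate 2 (highest 0.14).

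Of the 8 tested members, only *Dnmt3b* had negative values in all 3 lines. In *Xist* ΔB+C it measured 1093 and 1252 CPM without DOX and 799.6 and 873 CPM with DOX, so that the treatments did not overlap. *Xist* FL had 1112 and 1403 CPM and then 959 and 1247 CPM, and *Xist* ΔA 1564 and 1290 CPM and then 1535 and 1243 CPM, both overlapping. The log2 (fold change) was −0.49 ± 0.17 (SE) in *Xist* ΔB+C (adjusted p = 0.175, and 0.0805 with the block), −0.19 ± 0.17 in *Xist* FL (0.691) and −0.04 ± 0.17 in *Xist* ΔA (1), none past the threshold. The cofactor *Dnmt3l* gave 0.42 ± 0.40 in *Xist* FL, from 169.7 and 257 CPM to 197 and 373 CPM. Its adjusted p was 0.708, and 0.0215 with the block, a call lost without replicate 2 of either *Xist* FL group (highest adjusted p = 0.213). In *Xist* ΔB+C and *Xist* ΔA, *Dnmt3l* values were 0.18 ± 0.40 and 0.05 ± 0.40.

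The maintenance pair gave smaller values. *Dnmt1* lay between 270.2 and 345 CPM in all 12 libraries, with log2 (fold change) of 0.07 ± 0.11 (SE) in *Xist* FL (adjusted p = 0.811). *Uhrf1* lay between 258 and 398 CPM, and in *Xist* FL it was at 258 and 275 CPM without DOX and at 301 and 323 CPM with DOX, for a log2 (fold change) of 0.23 ± 0.15 (adjusted p = 0.577, and 0.0642 with the block). Of the other dioxygenases, *Tet2* was low and spread widely. In *Xist* FL it measured 4.92 and 9.29 CPM without DOX and 10.6 and 16.1 CPM with DOX, and in *Xist* ΔB+C 5.14 and 9.38 CPM and then 10.8 and 19.3 CPM. Its log2 (fold change) was 0.91 ± 0.75 and 1.05 ± 0.75 (adjusted p = 0.656 and 0.502), and −0.22 ± 0.74 in *Xist* ΔA. *Tet3* gave 0.21 ± 0.19 for *Xist* FL, 0.30 ± 0.19 for *Xist* ΔB+C and −0.18 ± 0.19 for *Xist* ΔA (adjusted p = 0.693, 0.443 and 1).

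**Figure D2:**
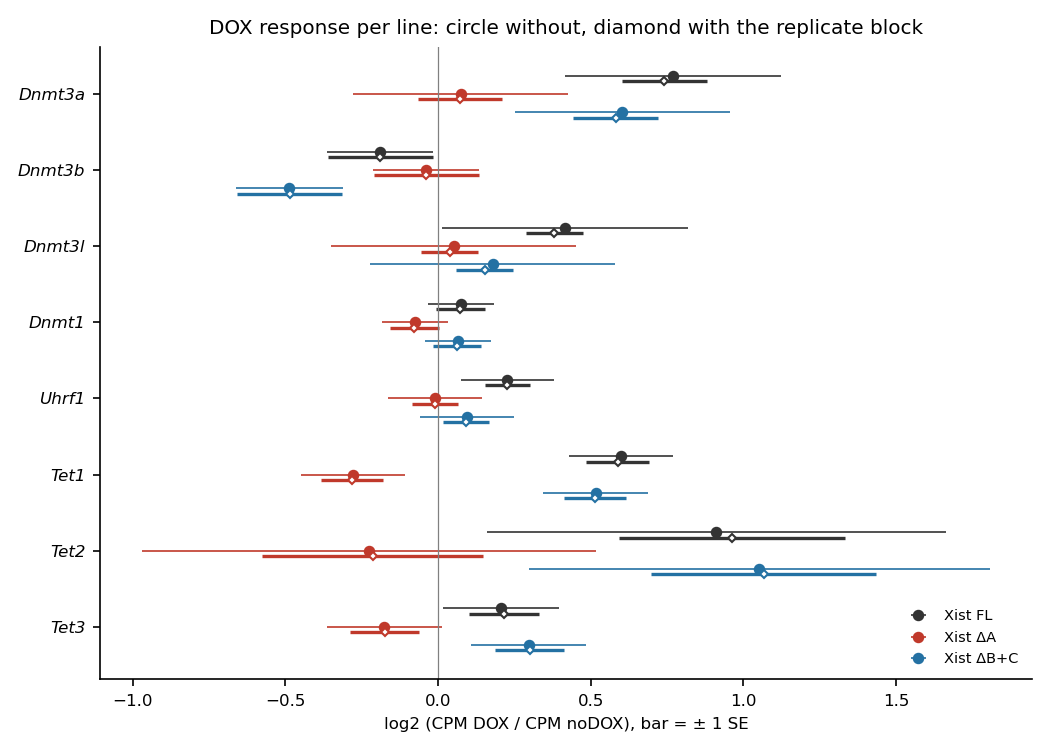
log2 of the CPM ratio of DOX to noDOX for the 8 tested genes in each line, with bars of 1 SE; circles are the fit without the replicate block and diamonds the fit with it. *Tet1* is at 0.60 for *Xist* FL and 0.52 for *Xist* ΔB+C but at −0.28 for *Xist* ΔA, and the bars of *Dnmt3a*, *Dnmt3l* and *Tet2* shorten with the block.

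Markers of cell state were measured in the same libraries. The 8 markers of the naive state, among them *Zfp42*, *Klf4* and *Esrrb*, summed to 283 to 319 CPM in *Xist* FL noDOX and 506 to 528 CPM in *Xist* FL DOX, and to 259 to 374 CPM and 426 to 762 CPM in *Xist* ΔB+C. In *Xist* ΔA the sums were 244 to 609 CPM and 216 to 669.9 CPM. None of the 8 passed the threshold in any line, and with the block 1 rose in *Xist* ΔB+C (21.9% of all genes called). Of the 8 markers of the formative state, a list that holds *Dnmt3a* and *Dnmt3b* themselves, 2 fell in *Xist* ΔB+C (2.94% of all genes passed). These were *Fgf5*, a growth factor of the early epiblast, at −1.48 ± 0.32 (adjusted p = 0.0434), and *Lef1*, a Wnt effector, at −0.70 ± 0.11 (0.0156). With the block, 2 formative markers rose and 1 fell in *Xist* FL (13.9% of all genes called). In *Xist* ΔB+C with the block, 1 rose and 4 fell (21.9%). Those that rose included *Dnmt3a* in both lines. The mesoderm regulator *Eomes* fell by 1.59 on the log2 scale in *Xist* FL (adjusted p = 0.0427) and by 1.38 in *Xist* ΔB+C (0.0431). Mesoderm markers summed to 175 to 242 CPM and 35.8 to 132 CPM without and with DOX in *Xist* FL. The part of cell state in the values of *Tet1*, *Dnmt3a* and *Dnmt3b* was not tested.

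The lines were next compared with each other within each treatment. All libraries are from day 2 of differentiation, so these differences do not show how the lines stood before it. Without DOX, 2 of the 8 members were higher in *Xist* ΔA than in *Xist* FL and none was lower, when 9.84% of all genes passed. All 8 log2 (fold change) values were above 0, with a median of 0.57 beside 0.00 for all genes. Between *Xist* ΔB+C and *Xist* FL no member passed (0.0227% of genes), and between *Xist* ΔB+C and *Xist* ΔA 1 member was lower (6.69%). With the block, 5, 1 and 3 members passed in these comparisons, when 33.4%, 0.993% and 27.9% of genes did.

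*Tet1* showed the largest of the called differences. Its 245 and 311 CPM in *Xist* ΔA noDOX lay above the 125 and 132 CPM of *Xist* FL noDOX, a log2 (fold change) of 1.11 ± 0.17 (SE), or 2.16‐fold (adjusted p = 0.00617). Against *Xist* ΔA, *Xist* ΔB+C was at −0.95 ± 0.17 (adjusted p = 0.0164), and against *Xist* FL it was at 0.16 ± 0.17 (adjusted p = 1). With DOX the 3 lines came closer, and *Xist* ΔA minus *Xist* FL was 0.24 ± 0.17 (adjusted p = 0.397). The first call was lost without *Xist* ΔA noDOX replicate 2 (log2 (fold change) 0.93, adjusted p = 0.0533) or *Xist* FL noDOX replicate 1 (1.07, 0.0557). The call against *Xist* ΔB+C was lost without *Xist* ΔB+C noDOX replicate 1 (−0.95, 0.108), *Xist* ΔB+C noDOX replicate 2 (−0.97, 0.0846) or *Xist* ΔA noDOX replicate 2 (−0.77, 0.117). With the block, both *Tet1* calls stood in all 12 fits that left out a library.

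*Tet3*, best known as the oocyte and neural dioxygenase, measured 37.7 and 33.7 CPM in *Xist* ΔA noDOX against 23.2 and 19.4 CPM in *Xist* FL noDOX. The groups did not overlap, and the log2 (fold change) was 0.75 ± 0.19 (SE; adjusted p = 0.0408). This call held in 4 of the 12 fits that left out a library, 2 without a *Xist* ΔB+C noDOX replicate and 2 without a *Xist* ΔB+C DOX replicate. It was lost without any one of the *Xist* FL or *Xist* ΔA libraries, with adjusted p between 0.0573 and 0.202, and with the block it stood in 12 of 12. *Xist* ΔB+C had 32.3 and 22.8 CPM, and with the block it was below *Xist* ΔA by −0.39 ± 0.11 (adjusted p = 0.0247, and 0.277 without the block), a call lost without *Xist* ΔB+C noDOX replicate 2 or either *Xist* ΔA noDOX replicate (highest adjusted p = 0.211). With DOX, *Tet3* in *Xist* ΔA minus *Xist* FL was 0.36 ± 0.19 (adjusted p = 0.238, and 0.0276 with the block, a call lost without *Xist* FL DOX replicate 1 or either *Xist* ΔA DOX replicate), and in *Xist* ΔB+C minus *Xist* FL 0.46 ± 0.19 (0.591, and 0.0564 with the block).

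Markers of cell state also differed between *Xist* ΔA and *Xist* FL without DOX. Of the 3 tested mesoderm markers 2 were lower in *Xist* ΔA, *Mixl1* by −3.54 ± 0.86 (SE; adjusted p = 0.0351) and *Eomes* by −1.28 ± 0.29 (0.0279), and the 4 listed summed to 37.2 to 47.2 CPM beside 175 to 242 CPM in *Xist* FL. Of the 8 formative markers 3 were higher, *Sox3*, *Lef1* and *Sall2*, with sums of 2734 to 2961 CPM beside 2049 to 2515 CPM, which contain *Dnmt3a* and *Dnmt3b*. None of the 8 naive markers passed, with a median log2 (fold change) of 0.79. They summed to 244 CPM in *Xist* ΔA replicate 1 and 609 CPM in replicate 2, beside 283 to 319 CPM in *Xist* FL. Replicate 1 was thus below both *Xist* FL libraries and replicate 2 above them. Over all genes 9.84% passed, and the part of these markers in the *Tet1* and *Tet3* values was not tested.

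Among the writers, *Dnmt3l* differed between lines only with the block. Its libraries without DOX held 169.7 and 257 CPM in *Xist* FL, 283 and 405 CPM in *Xist* ΔA and 311 and 467 CPM in *Xist* ΔB+C, so the lowest library of either deletion line was above both *Xist* FL libraries. Against *Xist* FL, the log2 (fold change) was 0.69 ± 0.40 (SE) in *Xist* ΔA (adjusted p = 0.319, and 0.000283 with the block) and 0.87 ± 0.41 in *Xist* ΔB+C (0.852, and 0.00197 with the block). With DOX, *Xist* ΔB+C had 319 and 563 CPM and *Xist* FL 197 and 373 CPM, a difference of 0.63 ± 0.40 (adjusted p = 0.77, and 0.00646 with the block, when 3.07% of genes passed). For *Xist* ΔB+C, the blocked call without DOX was lost without *Xist* ΔB+C noDOX replicate 1 (adjusted p = 0.0515), and that with DOX without *Xist* FL DOX replicate 1 (0.0892). With DOX and the block, *Dnmt3l* was also higher in *Xist* ΔA than in *Xist* FL (0.36 ± 0.09, adjusted p = 0.0114, 37.1% of genes called) and in *Xist* ΔB+C than in *Xist* ΔA (0.28 ± 0.09, 0.0273, 43.7% called). The first of these was lost without replicate 1 of *Xist* ΔA DOX or *Xist* FL DOX (highest adjusted p = 0.149), and the second without *Xist* ΔB+C DOX replicate 2 or either *Xist* ΔA DOX replicate (highest 0.196). *Aire* overlaps *Dnmt3l* on the other strand, and the counting did not use strand.

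With DOX, *Dnmt3b* was the 1 member past the threshold without the block. It was lower in *Xist* ΔB+C, at 799.6 and 873 CPM, than in *Xist* ΔA, at 1535 and 1243 CPM, a log2 (fold change) of −0.73 ± 0.18 (SE; adjusted p = 0.0213), in a comparison where 18.5% of all genes passed. Against *Xist* FL the difference was −0.40 ± 0.17 (adjusted p = 0.633), when 0% of genes passed, and *Xist* ΔA against *Xist* FL gave 0.33 ± 0.17 (0.243), when 13.9% did. Without DOX, *Xist* ΔB+C minus *Xist* ΔA was −0.28 ± 0.17 (adjusted p = 0.374). The *Dnmt3b* call was lost without *Xist* ΔB+C DOX replicate 1 (−0.67, adjusted p = 0.0804), *Xist* ΔB+C DOX replicate 2, the low input library (−0.80, 0.0641), or *Xist* ΔA DOX replicate 1 (−0.57, 0.13). Formative markers summed to 1757 to 2335 CPM in *Xist* ΔB+C DOX and 2737 to 2897 CPM in *Xist* ΔA DOX, sums that contain *Dnmt3b*. Primitive endoderm markers summed to 514 to 605 CPM and 229 to 262 CPM in the same groups. *Sparc* made up most of these sums, at 549.5 and 472.7 CPM in *Xist* ΔB+C DOX and 235.4 and 204.6 CPM in *Xist* ΔA DOX. Of the 7 markers, 6 had a log2 (fold change) above 0 and 1 below. As many as 4 passed as higher in *Xist* ΔB+C DOX, led by *Sparc* at 1.22 ± 0.24 (adjusted p = 0.00951). Their part in the *Dnmt3b* value was not tested.

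For the maintenance genes, *Uhrf1* was at 333 and 398 CPM in *Xist* ΔA noDOX and 258 and 275 CPM in *Xist* FL noDOX, with a log2 (fold change) of 0.46 ± 0.15 (SE; adjusted p = 0.0963, and 0.00102 with the block). With the block *Uhrf1* was also lower in *Xist* ΔB+C than in *Xist* ΔA without DOX (−0.28 ± 0.07, adjusted p = 0.0178), lost without any one of the 4 libraries compared (highest adjusted p = 0.118). With DOX and the block it was higher in *Xist* ΔA than in *Xist* FL (0.21 ± 0.07, adjusted p = 0.0412), a call that stood in 5 of 12 fits leaving out a library. *Dnmt1*, at 306 and 345 CPM against 279 and 270.2 CPM in the same groups, gave 0.24 ± 0.11 (adjusted p = 0.191, and 0.0374 with the block). The blocked *Dnmt1* call was lost without either *Xist* ΔA noDOX replicate or *Xist* FL noDOX replicate 2 (highest adjusted p = 0.259).

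**Figure D3:**
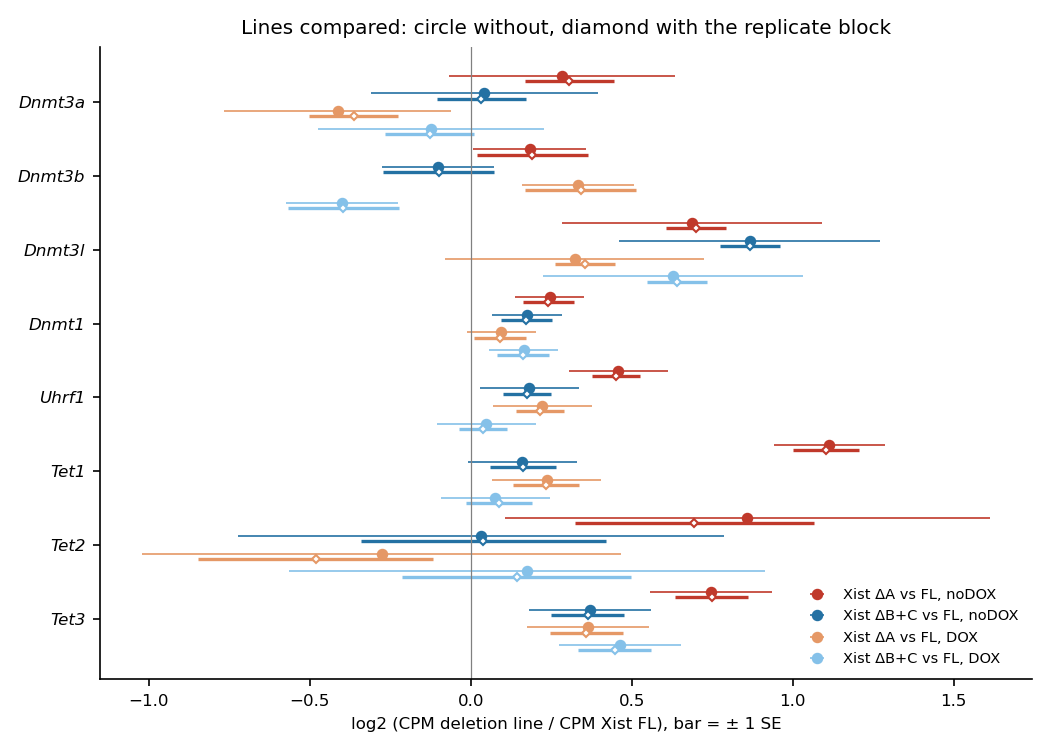
log2 of the CPM ratio of each deletion line to *Xist* FL for the 8 tested genes, with bars of 1 SE; circles are the fit without the replicate block and diamonds the fit with it. *Tet1* in *Xist* ΔA noDOX stands farthest to the right at 1.11, while *Dnmt3l*, *Dnmt1*, *Uhrf1*, *Tet1* and *Tet3* are right of 0 in all 4 comparisons.

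Genes around the 9 members were taken from lists of their partners, of oxidation and base excision repair, of methyl-CpG readers and of methyl donor metabolism. *Dppa3*, which encodes an inhibitor of UHRF1, was 1 of the 2 partners out of 15 that passed between *Xist* ΔA and *Xist* FL without DOX (9.84% of all genes did). It measured 1.87 and 2.87 CPM in *Xist* ΔA noDOX and 11.7 and 13.1 CPM in *Xist* FL noDOX, a log2 (fold change) of −2.39 ± 0.23 (SE; adjusted p = 0.000603). *Xist* ΔA DOX had 2.72 and 2.08 CPM, and *Xist* ΔB+C lay between 11.2 and 16.2 CPM in its 4 libraries, so every *Xist* ΔA library was below all others. The other partner, the H3K36 methyltransferase gene *Nsd1*, was higher at 0.50 ± 0.09 (adjusted p = 0.0112).

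In methyl donor metabolism, 3 of 11 genes passed in that comparison, 1 higher and 2 lower, beside the same 9.84% of all genes. *Ahcy*, which clears the S‐adenosylhomocysteine left by every methyl transfer, measured 137 and 139.5 CPM in *Xist* ΔA noDOX, 381 and 420.0 CPM in *Xist* FL noDOX and 450.1 and 477 CPM in *Xist* ΔB+C noDOX. Its log2 (fold change) between *Xist* ΔA and *Xist* FL was −1.53 ± 0.10 (SE; adjusted p = 7.03e-05). Without the block, *Ahcy* was also the 1 gene of this list to pass in the DOX response of a line. It fell by 0.55 on the log2 scale in *Xist* ΔB+C (adjusted p = 0.0226, 2.94% of all genes called), from the noDOX levels above to 295 and 339 CPM. With the block, 1 gene of the list was higher and 2 were lower in *Xist* FL (13.9% of genes called). In *Xist* ΔB+C with the block, 1 was higher and 2 were lower (21.9%). *Mthfd1* and *Mat2b*, of folate and S‐adenosylmethionine synthesis, gave 0.55 ± 0.08 and −0.44 ± 0.09 between *Xist* ΔA and *Xist* FL (adjusted p = 0.00478 and 0.0151).

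Of the 20 tested genes of oxidation and repair, 1 was higher and 1 lower in *Xist* ΔA than in *Xist* FL without DOX, when 9.84% of all genes passed. The TET-binding CXXC gene *Cxxc5* gave 0.64 ± 0.12 (adjusted p = 0.0136) and the repair polymerase gene *Polb* −0.69 ± 0.11 (0.00669). Without the block, none of these 20 and none of the 15 partners passed in the DOX response of a single line. Averaged over the 3 lines, 2 of the 20 were lower with DOX, when 4.05% of all genes passed. These were *Ogt*, the X‐linked gene of a TET partner that transfers O‐GlcNAc (−0.30 ± 0.06, adjusted p = 0.0205), and the DNA glycosylase gene *Neil3* (−0.37 ± 0.08, 0.0419). With the block, 1 partner was higher in *Xist* FL (13.9% of genes called) and 4 were lower in *Xist* ΔB+C (21.9%), while of the 20 genes 2 were higher and 2 lower in *Xist* FL, and 4 higher and 2 lower in *Xist* ΔB+C. Median log2 (fold change) values of the 4 lists in the DOX responses lay between −0.05 and 0.23. In *Xist* ΔB+C against *Xist* ΔA with DOX, 5 of 15 partners passed (1 higher, 4 lower), when 18.5% of all genes did.

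A comparison that the design did not set out to make, replicate 2 against replicate 1 over the 6 groups, gave the most calls. Of the 8 members, 5 were higher in replicate 2 and 1 was lower, when 46.3% of all genes passed. *Dnmt3l* was higher by 0.68 ± 0.05 on the log2 scale (SE; adjusted p = 1.64e-05), *Dnmt3a* by 0.56 ± 0.08 (0.000605), *Tet2* by 1.18 ± 0.21 (0.00378), *Uhrf1* by 0.22 ± 0.04 (0.00173) and *Tet1* by 0.22 ± 0.06 (0.0108). *Tet3* was lower, at −0.24 ± 0.07 (adjusted p = 0.0103). These 6 had the same direction in 6 of 6 groups (41.4% of all genes did). *Dnmt1* gave 0.10 ± 0.05 (adjusted p = 0.084).

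*Dnmt3b* differed in direction by line. Replicate 2 was above replicate 1 by 0.33 and 0.38 on the log2 scale in *Xist* FL noDOX and DOX and by 0.20 and 0.13 in *Xist* ΔB+C, and below it by −0.28 and −0.30 in *Xist* ΔA, and the value over all groups was 0.08 ± 0.10 (adjusted p = 0.561). For *Tet2* the gap was widest in *Xist* ΔA, where replicate 1 had 5.18 and 4.55 CPM and replicate 2 had 20.6 and 17.6 CPM. Of the 8 naive state markers 3 were higher in replicate 2 (46.3% of all genes passed in either direction), led by *Zfp42* at 0.96 ± 0.17 (adjusted p = 0.00542). All 3 tested mesoderm markers were lower in replicate 2, *Mixl1* by −1.39 ± 0.14 (6.89e-05). What the replicate number stands for is not given in the labels.

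**Figure D4:**
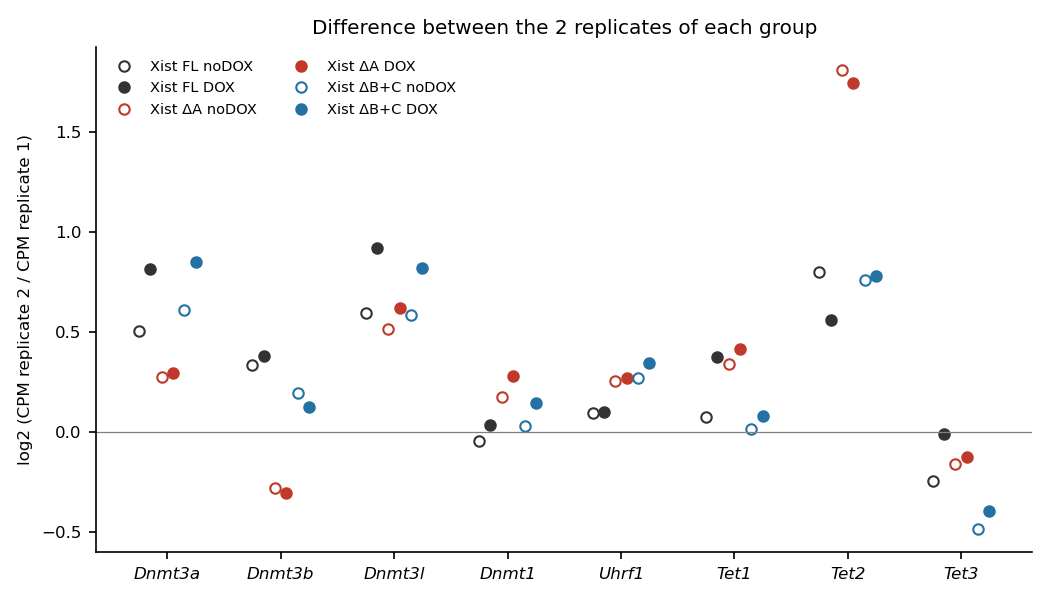
log2 of the CPM ratio of replicate 2 to replicate 1 in each of the 6 groups for the 8 tested genes, open symbols noDOX and filled symbols DOX. *Dnmt3a*, *Dnmt3l*, *Uhrf1*, *Tet1* and *Tet2* are above 0 and *Tet3* below 0 in every group, while *Dnmt3b* is below 0 only in *Xist* ΔA.

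The patterns over the 12 libraries were compared by Pearson's r of log2 (CPM + 1), given as a description because the libraries share groups and replicate numbers. Among the 28 pairs of tested members, *Uhrf1* and *Tet1* were most alike (r = 0.84, n = 12) and *Dnmt3b* and *Tet2* least (r = −0.33). Out of 9134 genes averaging 10 CPM or more, those most like each member were *Acy1* and *Ears2* for *Dnmt3a* (r = 0.96 and 0.96), *Wdr36* and *Zfp60* for *Dnmt3b* (0.94 and 0.94), and *Taok2* and *Iqgap3* for *Dnmt3l* (0.94 and 0.94). For *Dnmt1* they were *Ube3b* and *Slx4* (r = 0.95 and 0.95) and for *Uhrf1* *Gmppa* and *Ncdn* (0.98 and 0.98). *Jade1* and *Dopey2* were closest to *Tet1* (r = 0.97 and 0.97), *Manba* and *Mmp11* to *Tet2* (0.99 and 0.96), and *Man2a1* and *Rere* to *Tet3* (0.97 and 0.96).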

How the data were processed

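RNA was sequenced from the 3 *Xist*‐TetOP lines at day 2, with and without DOX, in 2 replicates per group, described by the study as biological. The authors mapped read pairs to mm10 with TopHat2 2.1.0 and counted pairs over refFlat exons, without strand, with featureCounts 1.5.1. They deposited these counts per gene without normalization, 1 file per library. A stated TPM filter was replaced by CPM, since the files hold counts. The names of some noDOX files contain the word DOX, and the labels were followed. No 2 libraries were identical.

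The 9 members and the other gene lists were chosen with earlier results of these data known. Genes reaching 1 CPM in 6 or more of the 12 libraries were tested with edgeR 4.0.16 (quasi‐likelihood, robust, 6 group means) in R 4.3.3. TMM factors came from 12721 autosomal genes and lay between 0.978 and 1.02. P‐values were adjusted by the Benjamini–Hochberg method over all 13191 genes, with a threshold of 0.05. Log2 (fold change) values carry edgeR's default prior count, and the SE is the log2 (fold change) divided by the root of F. Printed CPM are TMM‐scaled. In the smallest library 3 counts, taken as the smallest detectable number, are 0.0957 CPM, which covers counting error only.

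Replicate numbers in the labels were taken as pairing the libraries, because the deviations from group means correlated across autosomal genes in all 15 pairs of groups (r between 0.405 and 0.838). The blocked fit was therefore given beside the first. From other lists, genes past the threshold were named, at most 3 per list and comparison by smallest p‐value, and for each member the 2 genes most like it. The result for 1 listed gene is not reported here. Other settings were DESeq2 1.42.0, limma‐voom (limma 3.58.1), library totals, TMM factors from all expressed genes, no filter, a filter of 5 CPM, the libraries of the compared lines only, and leaving out 1 library. Leaving out 1 library in the blocked fit was added after seeing the data. Exon lengths came from GENCODE vM21, whereas the counts were made over refFlat exons. The length used for a gene can therefore differ from the exons counted, and levels per kb are approximate. The steps were tested on simulated counts. Python 3.11.15 with matplotlib 3.10.9 was used for the figures.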

Additional observations from a re-analysis of the deposited data

Results flagged for a closer look

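The DOX response of *Tet1* differed between lines by a test of the difference itself, in the fit with the replicate block. Relative to *Xist* FL, the response of *Xist* ΔA was −0.87 on the log2 scale, and relative to *Xist* ΔA, the response of *Xist* ΔB+C was 0.79. Without the block neither difference passed.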

How the results depend on the processing

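With 2 libraries a group, the number of genes called moved with the setting. Of 112 member values, 10 passed, 6 of them between replicates, and none of these 10 changed direction in 12 fits that each left out 1 library. Over all 1344 such values, 89 changed sign, all of values that had not passed. With DESeq2, *Tet1* in *Xist* FL (0.62, adjusted p = 0.0283) and *Uhrf1* in *Xist* ΔA against *Xist* FL without DOX (0.46, 0.0444) also passed. *Tdg*, tested only without the filter on low counts, did not pass in any comparison (adjusted p of at least 0.312).

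In the replicate block fit, genes called numbered 1827 for the DOX response of *Xist* FL, 3 for *Xist* ΔA, 2887 for *Xist* ΔB+C and 3143 for their average (without the block 163, 1, 388 and 534). Blocked counts for the differences of response were 436 for *Xist* ΔA against *Xist* FL and 1230 for *Xist* ΔB+C against *Xist* ΔA (0 and 27). For the lines without DOX the block gave 4403 (*Xist* ΔA against *Xist* FL), 131 (*Xist* ΔB+C against *Xist* FL) and 3686 (*Xist* ΔB+C against *Xist* ΔA), and with DOX 4897, 405 and 5760 (without the block 1298, 3 and 882, and 1833, 0 and 2436). The block changed no call of a member other than those named with it. DESeq2 gave 555, 4, 1092 and 1204 calls for the DOX responses and their average, 145 and 382 for the 2 differences of response, 2158, 65 and 1626 for the lines without DOX, and 120 for *Xist* ΔB+C against *Xist* FL with DOX. Where edgeR made 0 calls, unadjusted p under 0.05 were found for 981 genes in the response of *Xist* ΔA minus that of *Xist* FL, 106 in that of *Xist* ΔB+C minus *Xist* FL and 1035 in *Xist* ΔB+C against *Xist* FL with DOX.

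With only the libraries of the lines compared, calls fell to 1 in *Xist* FL, 1 in *Xist* ΔB+C, 0 for *Xist* ΔB+C against *Xist* ΔA in response, 0 for *Xist* ΔB+C against *Xist* FL and 353 for *Xist* ΔB+C against *Xist* ΔA without DOX. TMM factors from all genes gave 0 calls for *Xist* ΔB+C against *Xist* FL without DOX. Library totals gave 13 for the response of *Xist* ΔB+C minus *Xist* ΔA. Without the filter there were 4 calls for the response of *Xist* ΔA minus *Xist* FL, 46 for *Xist* ΔB+C minus *Xist* ΔA, and 1 for *Xist* ΔB+C against *Xist* FL without DOX.

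Leaving out 1 library gave between 4 and 228 calls in *Xist* FL, lowest without *Xist* FL DOX replicate 2, between 47 and 334 in *Xist* ΔB+C, lowest without its low input library *Xist* ΔB+C DOX replicate 2, and between 199 and 874 on average over lines. The response of *Xist* ΔB+C minus *Xist* ΔA had between 0 and 12 calls. For lines without DOX the ranges were 259 to 1495 (*Xist* ΔA against *Xist* FL), 0 to 0 (*Xist* ΔB+C against *Xist* FL) and 180 to 990 (*Xist* ΔB+C against *Xist* ΔA). With DOX they were 563 to 2043 (*Xist* ΔA against *Xist* FL) and 864 to 2185 (*Xist* ΔB+C against *Xist* ΔA). Where an arm was left with 1 library, it was assumed to vary like the other groups. Signs turned for values that had not passed, and over these fits *Dnmt3a* in *Xist* ΔA ranged from -0.082 to 0.22, *Dnmt3b* in *Xist* ΔA from −0.20 to 0.11, and *Dnmt3l* from −0.12 to 0.81 in *Xist* FL, −0.29 to 0.33 in *Xist* ΔA, −0.29 to 0.53 in *Xist* ΔB+C, -0.066 to 0.86 in *Xist* ΔA against *Xist* FL with DOX and −0.16 to 0.66 in *Xist* ΔB+C against *Xist* ΔA with DOX. *Tet1* ranged from −0.35 to 0.065 in *Xist* ΔB+C against *Xist* ΔA with DOX and −0.26 to 0.12 for the response of *Xist* ΔB+C minus *Xist* FL, and *Tet2* from −1.50 to 1.09 in *Xist* ΔA.

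With the longest transcript as the length, levels were 52.0 CPM per kb for *Dnmt1*, 55.8 for *Dnmt3a*, 186 for *Dnmt3l*, 89.8 for *Uhrf1*, 1.21 for *Tet2*, 2.67 for *Tet3* and 0.115 for *Tdg*. Scaling by library totals moved no mean level of a member beyond its SD over the 12 libraries.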

Other observations

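Germline genes whose promoters are normally held silent by DNA methylation, 12 in the list and 10 tested, summed to 68.6 to 118 CPM over all libraries. *Ddx4* had the highest level of the 12 in every library, at 29.4 to 46.8 CPM, and so made up a large part of these sums. Between *Xist* ΔB+C and *Xist* ΔA without DOX, 1 of the 10 passed and was lower (6.69% of all genes passed), the X‐linked meiotic gene *Tex11* at −1.24 ± 0.26 (SE; adjusted p = 0.0266), and with DOX 3 were lower (18.5% of all genes passed), *Tex11* (−1.41), *Sycp3* (−0.97) and *Mael* (−1.52). No gene of this list passed in a DOX response without the block, and 5 of 10 were higher in replicate 2 than in replicate 1, none lower (46.3% of all genes passed).

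Of 18 DNA replication genes, 1 fell with DOX in *Xist* FL (1.24% of all genes passed) and again in *Xist* ΔB+C (2.94%). This was *Pola1*, the X‐linked gene of the catalytic subunit of DNA polymerase alpha, at −0.77 ± 0.12 (SE; adjusted p = 0.0202) and −0.81 ± 0.12 (0.0113). Adding the block gave 2 lower and 0 higher for *Xist* FL (13.9% of genes called). For *Xist* ΔB+C it gave 6 lower and 0 higher (21.9%). Unblocked log2 (fold change) values were below 0 for 12 of the 18 and above for 6 in *Xist* FL. Those of *Xist* ΔB+C were below 0 for 16 and above for 2. In *Xist* ΔB+C against *Xist* ΔA with DOX, 5 of the 18 were lower and none higher (18.5% of all genes passed), and *Tyms* led the autosomal ones at −0.82 ± 0.09 (adjusted p = 0.00093). *Dnmt1* and *Uhrf1*, which act at replication forks, were at 0.07 ± 0.11 and −0.17 ± 0.15 in that comparison.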
